A study of Mus musculus with 20 samples.

Results

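Liver RNA of male mice was examined for 8 genes that red blood cells and their precursors are known for: Alas2, Bpgm, the globin genes Hba-a1, Hba-a2, Hbb-bs and Hbb-bt, and the membrane genes Slc4a1 and Epb42. They were taken from the deposited counts by symbol, 8 of 36106 genes, and all 8 passed the filter on low counts. The mice belonged to 4 groups: orchiectomy (removal of the testes) with intermittent hypoxia (ORX_IH, n = 5), orchiectomy with normoxia (ORX_Nx, n = 5), sham surgery with intermittent hypoxia (Sham_IH, n = 5) and sham surgery with normoxia (Sham_Nx, n = 4). Normoxia or intermittent hypoxia, in which oxygen falls and returns again and again as it does in sleep apnoea, lasted 2 weeks. Strain, age and the hypoxia settings are not given in the sources used here, and the fifth Sham_Nx mouse, number 1, was not analysed here. Each library is the liver of 1 mouse and is named by group and mouse number.

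Red cells carry oxygen on haemoglobin, a tetramer of alpha and beta globin chains that each hold a haem group. Haem synthesis opens with 5-aminolevulinate synthase, which has a housekeeping form, Alas1, that liver uses heavily, and an erythroid form, Alas2. Bpgm makes 2,3-bisphosphoglycerate, which lowers the oxygen affinity of haemoglobin. Slc4a1 (band 3) exchanges chloride for bicarbonate across the red cell membrane, and Epb42 (protein 4.2) ties band 3 to the membrane skeleton. Adult liver is not a main site of red cell formation but contains blood, and reticulocytes in blood still hold globin RNA.

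The upstream sequence is shown for 4 of the genes because 3 of them carry the motifs that erythroid genes are known for and the other, Bpgm, does not. RefSeq (build GRCm38.p6) gave promoter sequence for 7 of the 8 genes. The 250 bases before the start site are printed 5′ to 3′ on the gene's strand. They lie at chrX:150547167-150547416 (+ strand) for Alas2, chr11:32283422-32283671 (+) for Hba-a1, chr7:103827929-103828178 (− strand) for Hbb-bs and chr6:34476106-34476355 (+) for Bpgm. Capitals mark GATAA, the core bound by GATA factors, and CACCC, the box bound by Krüppel-like factors, each searched on both strands, so that TTATC and GGGTG are also in capitals.
Alas2: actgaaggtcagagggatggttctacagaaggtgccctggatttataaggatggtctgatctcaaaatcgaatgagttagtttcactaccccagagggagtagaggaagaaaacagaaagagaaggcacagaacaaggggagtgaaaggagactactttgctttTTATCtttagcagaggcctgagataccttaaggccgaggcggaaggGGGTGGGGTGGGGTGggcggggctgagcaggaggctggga
Hba-a1: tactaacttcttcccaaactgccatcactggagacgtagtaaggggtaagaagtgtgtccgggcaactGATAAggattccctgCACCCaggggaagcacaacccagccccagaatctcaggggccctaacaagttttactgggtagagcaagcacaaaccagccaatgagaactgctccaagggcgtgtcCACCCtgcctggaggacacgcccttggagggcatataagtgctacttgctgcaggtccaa
Hbb-bs: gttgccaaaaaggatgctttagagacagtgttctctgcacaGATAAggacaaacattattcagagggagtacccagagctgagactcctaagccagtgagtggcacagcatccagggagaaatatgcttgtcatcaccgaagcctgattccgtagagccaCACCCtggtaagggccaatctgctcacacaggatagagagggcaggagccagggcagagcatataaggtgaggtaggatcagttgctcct
Bpgm: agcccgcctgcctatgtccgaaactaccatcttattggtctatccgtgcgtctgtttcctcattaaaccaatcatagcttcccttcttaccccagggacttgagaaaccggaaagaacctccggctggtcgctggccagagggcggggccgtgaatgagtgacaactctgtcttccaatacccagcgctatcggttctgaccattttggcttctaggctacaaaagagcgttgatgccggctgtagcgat
GATAA was found in 6 of the 7 promoters and in 22.6% of 32817 promoters of the same length. CACCC was found in 5 of the 7 and in 52.0% of all. Alas2 had 1 GATAA match and 3 adjacent CACCC matches, Hba-a1 had 1 and 2, and Hbb-bs had 1 and 1. Bpgm had neither motif in this window. The STAT motif TTCNNNGAA, which reads the same on both strands, was found in 0 of the 7 and in 7.02% of all promoters. Hba-a1 and Hba-a2 shared an unbroken run of 247 of these bases, and Hbb-bs and Hbb-bt a longest run of 14. These matches describe letters in a window and are not evidence of binding.

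Hepatocyte markers were high in every library: the summed level of 7 such genes lay between 73370 and 121100 counts per 1000000 (CPM, scaled by trimmed mean of M-values, TMM). Some genes listed for red cells and their precursors were at low levels, and others were not. Gata1, the erythroid transcription factor, reached at most 0.0312 CPM, and Cldn13 had no count in any library. Klf1, the erythroid Krüppel-like factor, lay between 0.986 and 3.12 CPM and Tal1, a transcription factor of blood and endothelial cells, between 0.825 and 2.01 CPM, above the floor in every library. Of 33 red cell membrane, surface and maturation genes in the table, 14 never rose above 1 CPM. Others of the 33 were far higher in every library. Epb41 lay between 124.5 and 176 CPM, Bnip3l between 68.2 and 92.4, Xpo7 between 58.7 and 82.2 and Zfpm1 between 54.1 and 100.9 CPM. The 4 globins were plainly present, at a summed 248.7 to 761 CPM. Total counts lay between 29.3 and 69.6 M per library, and the detection floor was set at 3 counts, which is 0.0431 to 0.102 CPM. Some libraries stood apart in genes of neighbouring tissues: the summed level of 11 skeletal muscle genes was 933 and 550 CPM in ORX_IH mice 1 and 2 and 158 and 41.4 CPM in Sham_Nx mice 2 and 3, and at most 8.18 CPM elsewhere. The summed level of 11 pancreatic acinar genes was 216 CPM in ORX_IH mouse 1, 1266 CPM in Sham_IH mouse 5 and 532.5 CPM in Sham_Nx mouse 5, and at most 16.4 CPM elsewhere. The average of orchiectomy called 9 of these 11 lower, where 10.1% of all genes were.

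Per kilobase of gene length, which allows genes to be compared, Hba-a2 and Hbb-bs were the most abundant of the 8. In ORX_IH livers Hba-a2 averaged 437 ± 206 RPKM (reads per kilobase and 1000000 reads, SD, n = 5), Hbb-bs 379 ± 170, Hba-a1 186 ± 76.9, Hbb-bt 42.1 ± 18.2, Alas2 10.5 ± 1.70 and Bpgm 9.45 ± 0.81 RPKM. In Sham_Nx livers Hba-a2 averaged 447 ± 97.7 RPKM (SD, n = 4), Hbb-bs 354 ± 69.96, Hba-a1 189 ± 42.0, Alas2 52.1 ± 4.92, Hbb-bt 45.2 ± 7.94 and Bpgm 10.8 ± 0.75 RPKM. Alas2 thus stood below Hbb-bt in ORX_IH livers and within its spread in Sham_Nx livers, and the ranges of Hba-a2 and Hbb-bs over mice overlapped. Within a library, however, Hba-a2 exceeded Hbb-bs per kilobase in 18 of 19 libraries, by a ratio of 1.15 ± 0.10 in ORX_IH and 1.26 ± 0.05 in Sham_Nx livers (SD, n = 5 and 4), which was not tested. Slc4a1 and Epb42 were at most 0.0743 and 0.130 RPKM in any group mean.

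**Figure D1:**
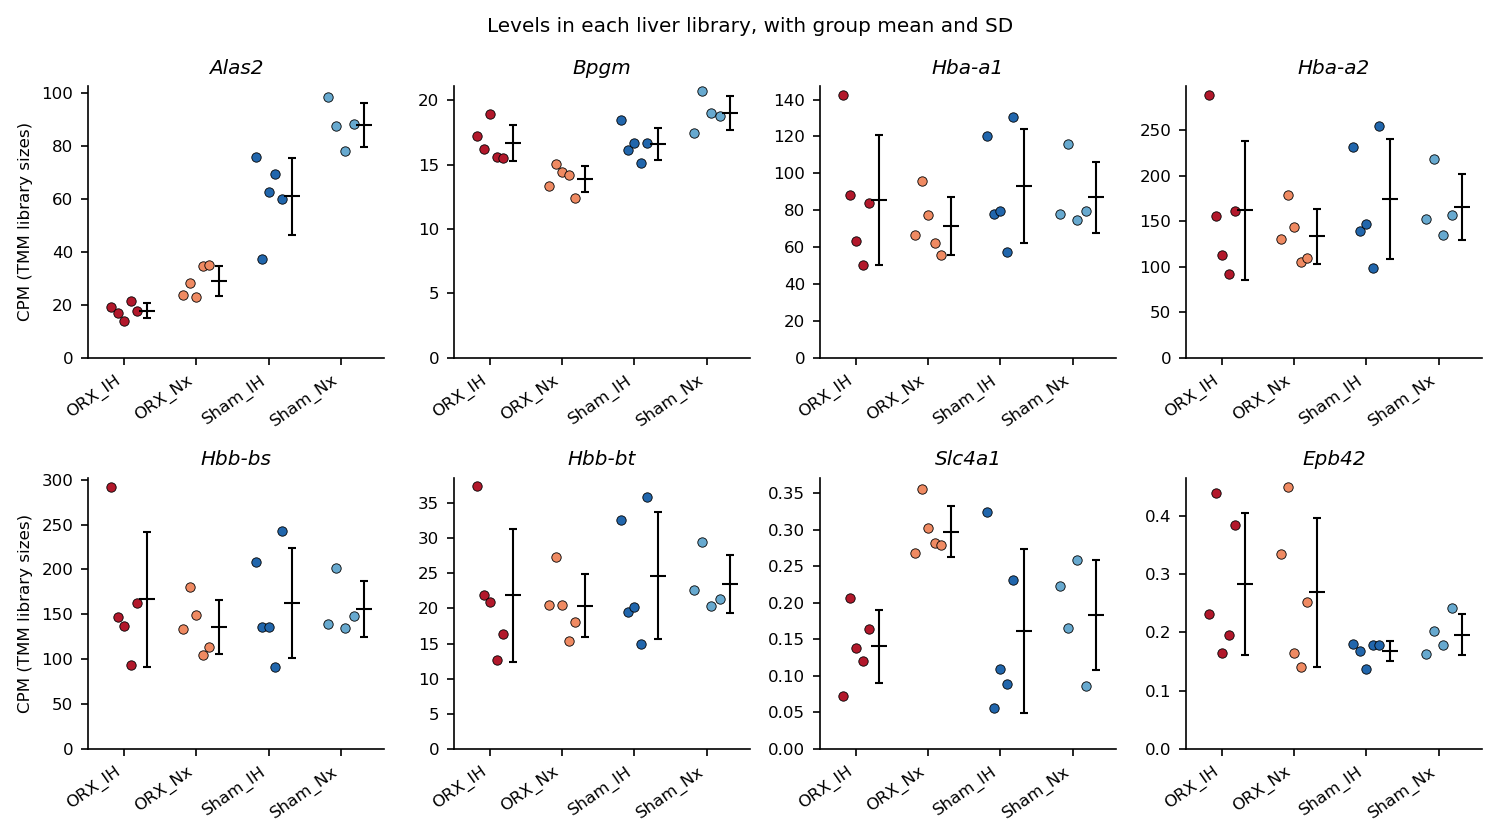
Levels of the 8 genes in counts per 1000000 (CPM, linear axes that start at 0) in the 4 groups of liver libraries; points are single mice, and the bar beside them is the group mean with its SD. Alas2 separates the groups, from 13.8 to 21.5 CPM in ORX_IH livers up to 78.1 to 98.4 CPM in Sham_Nx livers, while the globins overlap across all 4 groups.

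Alas2, the erythroid form of the first enzyme of haem synthesis, was lower after orchiectomy in both exposures and had the largest called changes among the 8 genes. It stood at 19.1, 16.7, 13.8, 21.5 and 17.6 CPM in ORX_IH mice 1 to 5, and at 23.8, 28.2, 22.9, 34.6 and 35.1 CPM in ORX_Nx mice 1 to 5. In Sham_IH mice 1 to 5 it stood at 75.7, 37.4, 62.5, 69.4 and 60.1 CPM, and in Sham_Nx mice 2 to 5 at 98.4, 87.5, 78.1 and 88.3 CPM. Every orchiectomized mouse was below every sham mouse, and no group overlapped its neighbour. As a difference in CPM the narrowest gap, 21.5 against 22.9, was between the highest ORX_IH and the lowest ORX_Nx library. As a ratio the narrowest, 75.7 against 78.1 CPM, was between the highest Sham_IH and the lowest Sham_Nx library. These values rest on 643 to 5103 counts per library.

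Orchiectomy in normoxia lowered Alas2 by a log2 fold change of -1.61 ± 0.17 (ORX_Nx against Sham_Nx, SE; edgeR quasi-likelihood test, BH-adjusted p = 1.07e-05), or 3.05-fold. The exact two-sided permutation p was 0.00794, the smallest that 5 against 4 libraries can give. Under intermittent hypoxia the log2 fold change of orchiectomy was -1.78 ± 0.17 (ORX_IH against Sham_IH; edgeR adjusted p = 6.35e-06), or 3.44-fold lower. With both treatments Alas2 was 4.96-fold lower than in Sham_Nx livers (log2 fold change -2.31 ± 0.18, edgeR adjusted p = 6.77e-07). Averaged over both exposures orchiectomy gave -1.69 ± 0.12 (edgeR adjusted p = 2.76e-08). The averages reuse the libraries of the single comparisons, and the comparisons with Sham_Nx share those 4 libraries, so none of these values is independent of the others. The authors' deposited table, which tests for any difference among the groups, gave Alas2 a q-value of 2.09e-05.

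Intermittent hypoxia gave Alas2 a smaller difference than orchiectomy did, and the 2 differences were not tested against each other. Over both operations it had a log2 fold change of -0.62 ± 0.12 (95% interval -0.86 to -0.37; edgeR adjusted p = 0.00991), or 1.53-fold lower. Within sham livers the difference was -0.53 ± 0.17 (Sham_IH against Sham_Nx) and did not pass the test (edgeR adjusted p = 0.171), although the groups did not overlap. Within orchiectomized livers it was -0.70 ± 0.16 (ORX_IH against ORX_Nx; edgeR adjusted p = 0.0659), again without overlap. The exact permutation p was 0.0159 in sham and 0.00794 in orchiectomized livers, neither adjusted for other genes. The call of the average was lost without the 4 libraries highest in muscle genes, ORX_IH mice 1 and 2 and Sham_Nx mice 2 and 3 (-0.58 ± 0.15, edgeR adjusted p = 0.158). It was also lost in the libraries numbered up to 16 in the labels, mice 1 to 4 of each group but only 2 to 4 of Sham_Nx (-0.57 ± 0.14, adjusted p = 0.0512). Both settings leave fewer mice, and both estimates lay near the -0.62 of all libraries. Why the calls were lost was not tested. The interaction, the hypoxia effect after orchiectomy minus that after sham surgery, was -0.17 (95% interval -0.67 to 0.33; edgeR adjusted p = 0.923), which leaves room for effects of either sign.

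In bulk liver, fewer cells of a type and less RNA per cell cannot be told apart. Markers of some other cells moved with orchiectomy as well. In normoxia all 10 Kupffer cell and macrophage markers were called higher, where 7.88% of all genes were. Their summed level was 259 to 1101 CPM in ORX_Nx livers and 193 to 315 CPM in Sham_Nx livers. Other cell lists had few calls there: 0 of 8 sinusoidal endothelium markers, and 1 of 7 hepatocyte, 1 of 5 platelet and 2 of 5 neutrophil markers higher. Of 6 adipocyte markers 1 was called lower, of 11 skeletal muscle genes 3 lower, and of 11 pancreatic acinar genes 0. Of 12 acute phase genes 9 were called higher in the same comparison, and of 12 lymphocyte markers 4. Under intermittent hypoxia, where Alas2 was lower as well, 1.31% of all genes were called higher after orchiectomy. There edgeR called 0 of the 10 macrophage markers, 1 of the 12 acute phase genes and 3 of the 12 lymphocyte markers higher. Their log2 fold changes were still positive for 9, 12 and 11 genes, with medians of 0.54, 1.02 and 0.85. The average of orchiectomy called 9, 8 and 9 genes of these lists higher, where 11.8% of all genes were. The part of these genes in the Alas2 result was not tested. The 2 libraries highest in acute phase genes were ORX_Nx mouse 4 (summed 13420 CPM) and ORX_IH mouse 1 (10610 CPM). The highest of the rest had 10210 CPM. Without these 2 libraries, orchiectomy gave Alas2 an average of -1.75 ± 0.13, and without the 4 highest in muscle genes -1.66 ± 0.16 (log2 ± SE). ORX_Nx livers had at least 7900 CPM and Sham_Nx livers at most 7762 CPM of acute phase genes, so the removal left a difference between these groups.

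Bpgm, the source of 2,3-bisphosphoglycerate, was lower after orchiectomy in normoxia. It stood at 13.4, 15.1, 14.4, 14.2 and 12.4 CPM in ORX_Nx mice 1 to 5, against 17.5, 20.7, 19.0 and 18.8 CPM in Sham_Nx mice 2 to 5. The groups did not overlap, and the log2 fold change was -0.45 ± 0.08 (edgeR adjusted p = 0.00128; exact permutation p = 0.00794), or 1.37-fold lower. Under intermittent hypoxia the levels were 17.2, 16.2, 18.9, 15.6 and 15.5 CPM in ORX_IH mice 1 to 5, against 18.5, 16.1, 16.7, 15.1 and 16.7 CPM in Sham_IH mice 1 to 5. Here the groups lay over each other, with a log2 fold change of 0.01 (95% interval -0.15 to 0.16; edgeR adjusted p = 0.970).

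The effect of intermittent hypoxia on Bpgm had opposite signs after the 2 operations. It was 0.26 ± 0.07 after orchiectomy (ORX_IH against ORX_Nx; edgeR adjusted p = 0.0917), with every ORX_IH library above every ORX_Nx library, and -0.20 ± 0.08 after sham surgery (edgeR adjusted p = 0.273), with overlapping groups. Neither passed the threshold. The interaction was 0.46 ± 0.11 (95% interval 0.24 to 0.68), with an unadjusted p = 0.000417 in edgeR and an adjusted p = 0.224. DESeq2 gave the interaction an adjusted p of 0.0104, so that its call depends on the tool. Averaged over exposures, orchiectomy gave Bpgm -0.22 ± 0.05 (edgeR adjusted p = 0.00744), a call that was lost without the 4 libraries highest in muscle genes (adjusted p = 0.0598). The authors' deposited table gave Bpgm a q-value of 0.0118 for any difference among groups.

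The 4 globin genes, which encode the adult alpha (Hba-a1, Hba-a2) and beta (Hbb-bs, Hbb-bt) chains, differed between mice more than between groups. Hba-a1 stood at 142.7, 88.1, 63.4, 50.1 and 83.7 CPM in ORX_IH mice 1 to 5, and at 66.7, 95.7, 77.6, 62.2 and 55.4 CPM in ORX_Nx mice 1 to 5. In Sham_IH mice 1 to 5 it stood at 120, 77.7, 79.4, 57.2 and 131 CPM, and in Sham_Nx mice 2 to 5 at 77.9, 116, 74.6 and 79.7 CPM. All 4 groups overlapped. ORX_IH mouse 1 was the highest library for each of the 4 globins and Sham_IH mouse 5 the second. From the lowest to the highest library the levels spanned 2.85-fold for Hba-a1, 3.14-fold for Hba-a2, 3.20-fold for Hbb-bs and 2.95-fold for Hbb-bt.

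No globin was called in any of the 8 comparisons. Orchiectomy, averaged over exposures, gave Hba-a1 a log2 fold change of -0.20 ± 0.19 (95% interval -0.59 to 0.19; edgeR adjusted p = 0.464) and Hbb-bs -0.08 ± 0.20 (-0.49 to 0.33; adjusted p = 0.804). The median log2 fold change of the 4 globins was -0.19 for orchiectomy and 0.18 for intermittent hypoxia, each averaged over the other factor. Under the alternatives tried it lay between -0.33 and -0.08 for orchiectomy and between -0.08 and 0.25 for intermittent hypoxia, so that the sign for intermittent hypoxia was not stable. ORX_IH mouse 1 and Sham_IH mouse 5, the highest in globins, were also among the 3 libraries high in pancreatic genes, and without those 3 the median for intermittent hypoxia was -0.08. The intervals of these averages do not exclude changes of about the size seen for Bpgm. Those of single comparisons were wider and leave room for larger changes, with Hba-a2 at -0.93 to 0.31 in ORX_Nx against Sham_Nx. Because Hba-a1 and Hba-a2 are near-identical, the split of reads between them is uncertain. With the copies summed before the fit, the alpha pair gave -0.21 ± 0.20 and the beta pair -0.09 ± 0.20 for orchiectomy (edgeR adjusted p = 0.485 and 0.770).

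**Figure D2:**
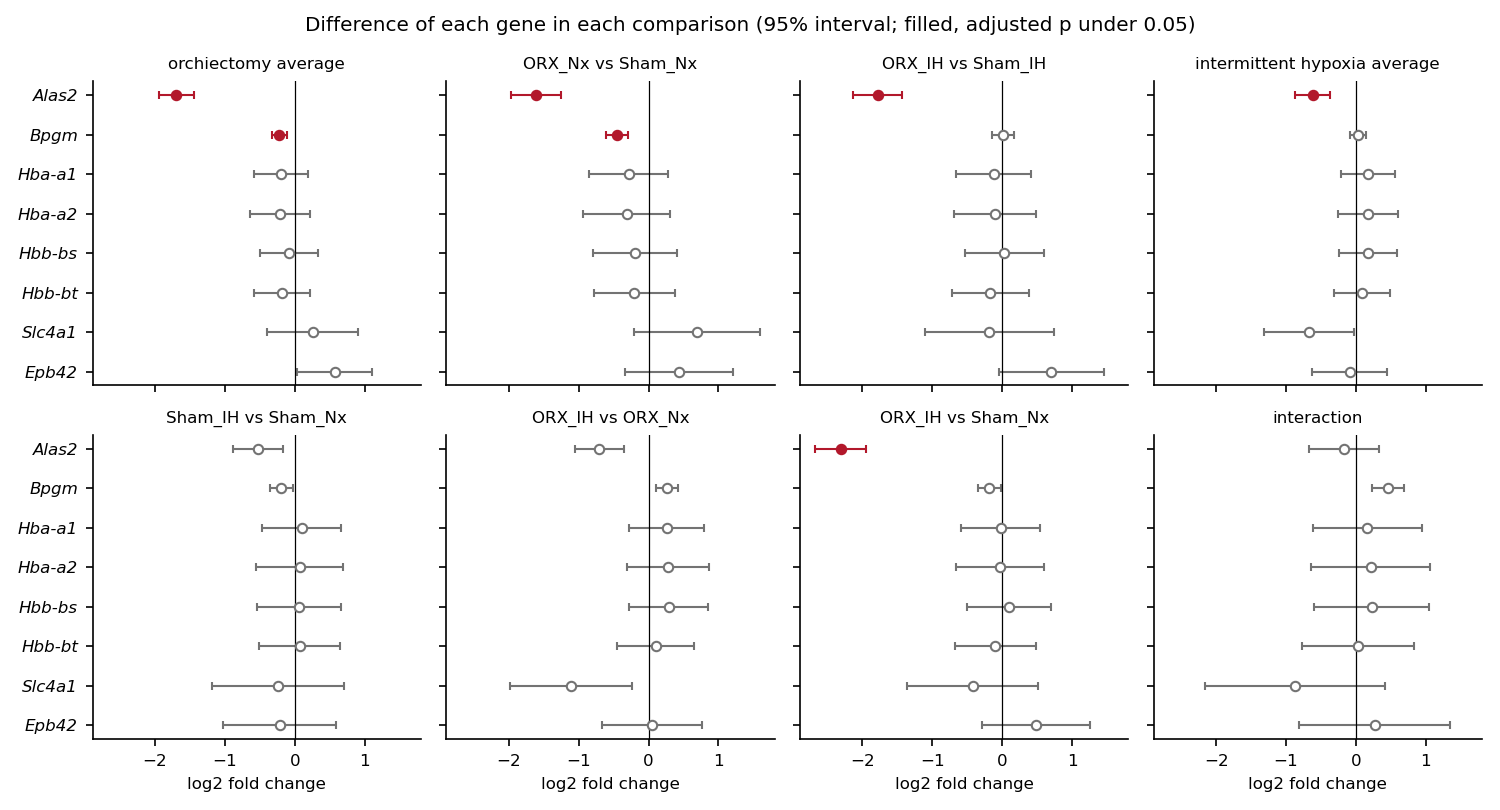
Log2 fold changes of the 8 genes in 8 comparisons, with 95% intervals from the edgeR fit; the first named group is the numerator, and filled points passed an adjusted p of 0.05. Alas2 lies left of 0 in every panel and is called in 5 of them, Bpgm is called in 2, and the intervals of the 4 globins cross 0 throughout.

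Within a library the globins kept close proportions. The ratio of alpha to beta globin counts was 1.31 ± 0.12 in ORX_IH, 1.31 ± 0.05 in ORX_Nx, 1.43 ± 0.04 in Sham_IH and 1.40 ± 0.04 in Sham_Nx livers (SD; n = 5, 5, 5 and 4). Hba-a1 took 33.1% to 37.3% of the alpha counts and Hbb-bt 9.15% to 14.1% of the beta counts over all 19 libraries. Alas2 did not follow this scale: per 1000 globin counts there were 47.0 ± 23.1 Alas2 counts in ORX_IH, 84.7 ± 31.8 in ORX_Nx, 149.4 ± 70.5 in Sham_IH and 209 ± 39.8 in Sham_Nx livers. Bpgm counts per 1000 globin counts were 43.6 ± 16.1, 39.5 ± 6.71, 40.2 ± 12.6 and 44.9 ± 6.39 in the same groups. These ratios are descriptions within libraries and were not tested.

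Slc4a1 and Epb42, the membrane pair, were close to the detection floor. Slc4a1 had 5, 8, 10, 8 and 6 counts in ORX_IH mice 1 to 5 and 16, 19, 22, 18 and 10 in ORX_Nx mice 1 to 5. It had 9, 3, 4, 5 and 13 counts in Sham_IH mice 1 to 5 and 11, 9, 16 and 5 in Sham_Nx mice 2 to 5. As CPM, every ORX_Nx library lay above every ORX_IH and every Sham_Nx library, from 0.268 to 0.356 CPM. The log2 differences, -1.11 ± 0.41 for ORX_IH against ORX_Nx and 0.69 ± 0.43 for ORX_Nx against Sham_Nx, did not pass the test (edgeR adjusted p = 0.174 and 0.295). Epb42 had between 5.16 and 23.9 estimated counts per library. Its average over exposures was 0.57 ± 0.26 for orchiectomy (edgeR adjusted p = 0.120). At 3 to 24 counts per library only large changes in these genes could be detected.

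Counted over the 8 genes, 2 were called after orchiectomy in normoxia, both lower, where 14.3% of 16164 genes were called and 6.46% were lower. Under intermittent hypoxia 1 was called after orchiectomy, against 2.88% of all genes, with 1.57% lower. Intermittent hypoxia gave 0 calls among the 8 after sham surgery, against 0.303% of all genes, and 0 after orchiectomy, against 0.0742%. With both treatments against Sham_Nx 1 was called lower, against 8.62% of all genes and 5.1% lower. The average of orchiectomy called 2, both lower, against 22.0% of all genes and 10.1% lower, and the average of intermittent hypoxia called 1, against 4.53% and 2.57% lower. The interaction called 0 of 8 and 0.0% of all genes in edgeR, where 1025 genes had an unadjusted p under 0.05, while DESeq2 called 63 genes. The median log2 fold change of the 8 was -0.19 for the average of orchiectomy, and 0.0047 over all genes tested. Groups without overlap were also counted. In ORX_Nx against Sham_Nx, Alas2 and Bpgm lay wholly lower, where 6.65% of genes did, and Slc4a1 wholly higher, where 5.69% did. In ORX_IH against ORX_Nx, Alas2 and Slc4a1 lay wholly lower, where 1.12% did, and Bpgm wholly higher, where 1.18% did. Alas2 alone of the 8 lay wholly lower in ORX_IH against Sham_IH (3.07% of genes), in Sham_IH against Sham_Nx (4.21%) and in ORX_IH against Sham_Nx (6.89%), and no member lay wholly higher there.

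Alas2 varied across libraries with other genes than the globins did. Over 19 libraries Pearson's r of its log2 CPM was 0.18 with Hba-a1 and 0.03 with Hbb-bs, whereas Hba-a1 had an r of 0.99 with Hba-a2, 0.96 with Hbb-bs and 0.92 with Hbb-bt. The libraries fall into 4 treatment groups and share normalization, so these are descriptions. The 5 genes whose pattern was most like that of Alas2 were Cyp4a12a (r = 0.96), Nat8f5 (0.94), Nat8 (0.92), Fam234a (0.91) and Mup21 (0.91). Cyp4a12a, a fatty acid hydroxylase known for its higher level in male than in female mouse liver, averaged 2.25 ± 1.52 CPM in ORX_IH, 5.33 ± 4.18 in ORX_Nx, 148 ± 46.3 in Sham_IH and 391 ± 69.1 CPM in Sham_Nx livers. After the group means were subtracted, r between Alas2 and these 5 genes was 0.74 for Cyp4a12a, 0.60 for Nat8, 0.56 for Nat8f5, 0.54 for Mup21 and 0.23 for Fam234a; they were chosen on the same libraries, so these values are raised by the choice. Between Alas2 and Hba-a1 it was -0.01. The genes most like Hba-a1 outside the 8 were Nupr1l (0.73), Acot6 (0.71), Arpp21 (0.71), Cdkal1 (0.70) and Gm52964 (0.70). These too were chosen on the same libraries, and Nupr1l, Arpp21 and Gm52964 were below 1 CPM in every library. Over the 19 libraries r between Alas2 and the 4 globins thus lay between 0.03 and 0.20. No interval was computed, so a moderate correlation is not excluded. The name erythroid stands here only for what the genes are known for. Cyp4a and Mup genes have near-identical copies, between which reads can be split.

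**Figure D3:**
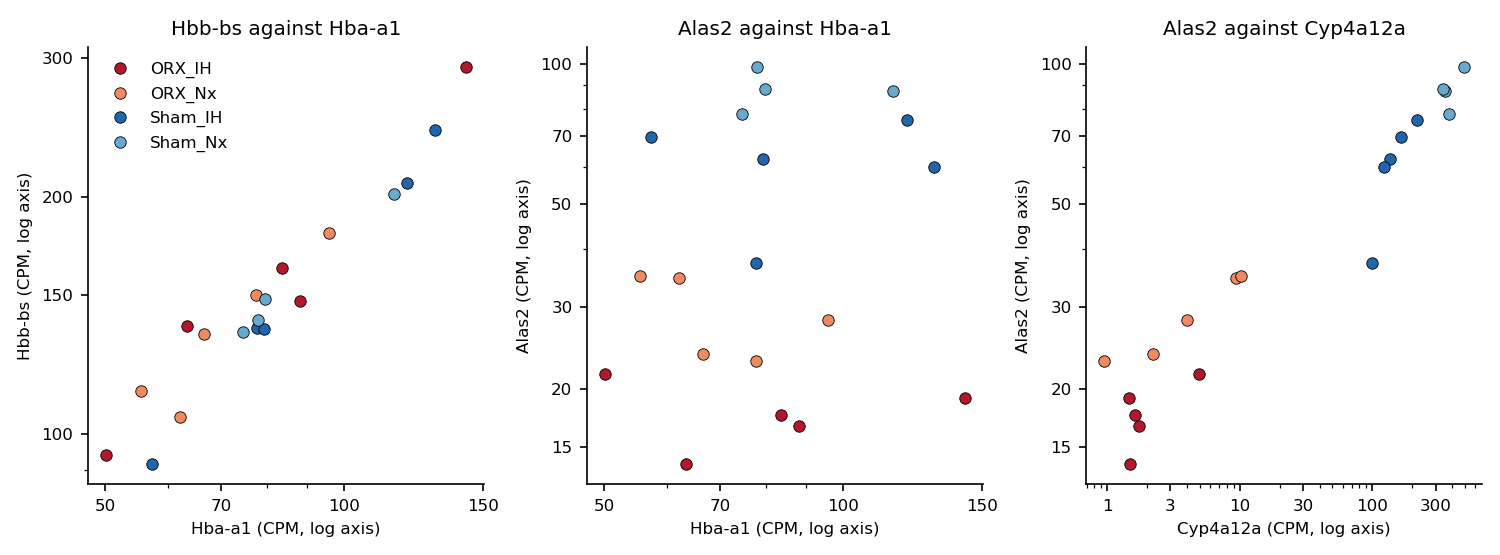
Levels in counts per 1000000 (CPM, log axes) in each of 19 liver libraries, coloured by group: Hbb-bs against Hba-a1, Alas2 against Hba-a1, and Alas2 against Cyp4a12a. The 2 globins lie along a line that mixes the groups (r = 0.96 on log2 CPM), Alas2 and Hba-a1 show no such line (r = 0.18), and Alas2 and Cyp4a12a rise together (r = 0.96) with the orchiectomized livers at the low end.

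Most other listed genes of haem synthesis and its transport were not called where Alas2 was. Of 13 such genes, edgeR called 0 after orchiectomy in normoxia, where 14.3% of all genes were called. Under intermittent hypoxia it called 0, where 2.88% of all genes were. The average of orchiectomy called 1 lower and 0 higher, against 22.0% of all genes, with 10.1% lower. Abcb10, a mitochondrial transporter needed for haem synthesis, averaged -0.26 ± 0.07 (edgeR adjusted p = 0.0178), a call lost under 4 of 31 alternatives. The median of the 13 was -0.09 for the average of orchiectomy. Alas1, the housekeeping form, lay between 174 and 1042 CPM and differed by 0.19 ± 0.29 (adjusted p = 0.684), with a 95% interval of -0.42 to 0.80. Intermittent hypoxia, averaged over operations, called 0 of the 13, against 4.53% of all genes. Alad, the second enzyme, stood at 0.22 ± 0.07 there (edgeR adjusted p = 0.0653). In a list this short, 0 calls at shares of 2.88% or 4.53% are no result about the list.

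**Figure D4:**
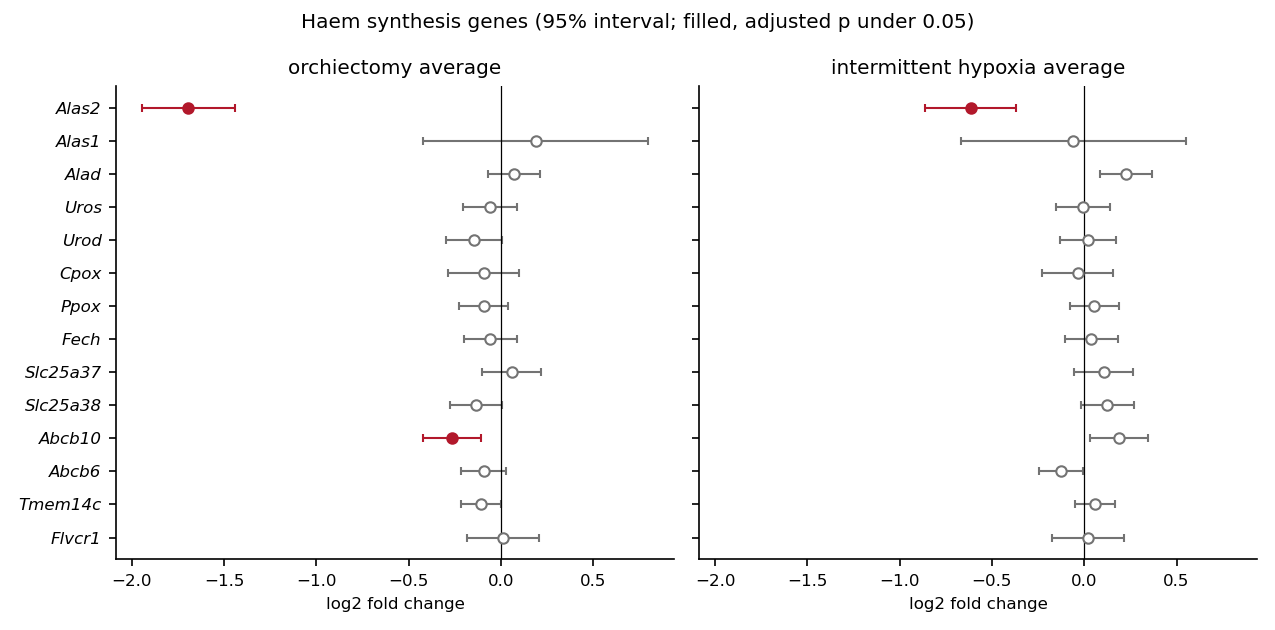
Log2 fold changes with 95% intervals for Alas2 and 13 other genes of haem synthesis and its transport, averaged over exposures for orchiectomy (left) and over operations for intermittent hypoxia (right), on the same axis; filled points passed an adjusted p of 0.05. Alas2 stands at -1.69 and -0.62, while the other called gene, Abcb10, lies at -0.26 for orchiectomy.

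Further lists of genes related to red cells are set beside the 22.0% of all genes that the average of orchiectomy called, 11.8% higher and 10.1% lower. Counts of 1 to 3 in lists this short lie near that share and are no result about the lists. Of 9 red cell membrane and surface genes tested, the average of orchiectomy called 2 higher and 1 lower. Gypc (glycophorin C), which other cells also express, averaged 14.9 ± 2.57 CPM in ORX_IH, 11.6 ± 2.05 in ORX_Nx, 9.37 ± 1.51 in Sham_IH and 5.47 ± 1.22 CPM in Sham_Nx livers. It rose by 1.08 ± 0.17 after orchiectomy in normoxia and 0.67 ± 0.16 under intermittent hypoxia (log2; edgeR adjusted p = 0.000544 and 0.0250), and the second call was lost under 10 of the alternatives tried. Ermap, an erythroid membrane protein of the blood group systems, averaged 0.94 ± 0.25 for orchiectomy, and Epb41 (protein 4.1) -0.20 ± 0.05 (edgeR adjusted p = 0.0130 and 0.0101). Ermap was low, between 0.194 and 1.06 CPM. Both calls were lost without the 4 libraries highest in muscle genes (edgeR adjusted p = 0.0504 and 0.0789). Of 14 maturation and regulator genes tested, the same average called 2 higher and 1 lower. Car2, carbonic anhydrase II, rose by 0.98 ± 0.13 (edgeR adjusted p = 5.58e-05), and Tmcc2 by 0.50 ± 0.12 (adjusted p = 0.00868). Zfpm1, the GATA cofactor FOG-1, fell by 0.40 ± 0.06 under intermittent hypoxia, averaged over operations (edgeR adjusted p = 0.00265). That average called 1 of the 14, against 4.53% of all genes. The calls of Tmcc2 and Zfpm1 were also lost without the 4 libraries highest in muscle genes (edgeR adjusted p = 0.0870 and 0.0962).

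Of 3 further globin-family genes tested, the average of orchiectomy called Cygb (cytoglobin) higher, by 0.35 ± 0.11 (edgeR adjusted p = 0.0327), a call lost under 13 of 31 alternatives. Mb, the myoglobin of muscle, lay between 0 and 66.96 CPM in ORX_IH and between 0 and 0.0719 CPM in Sham_IH livers, and was called higher in ORX_IH livers (edgeR adjusted p = 0.0371), with the muscle markers given above in ORX_IH mice 1 and 2. With the 4 muscle-rich libraries left out, both groups were at or under the floor of 3 counts and Mb was not called (adjusted p = 0.858); it was not called under 13 of 31 alternatives. The embryonic globins Hba-x and Hbb-y had no count in any library.

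The next counts for the average of orchiectomy again stand beside 22.0% of all genes called, 11.8% higher and 10.1% lower. They lie near that share and are no result about the lists. Among the bicarbonate transporters related to Slc4a1, 8 were tested and the average of orchiectomy called 2 higher. These were Slc4a9, by 1.18 ± 0.17, and Slc4a4, a sodium bicarbonate cotransporter, by 0.39 ± 0.07 (edgeR adjusted p = 9.42e-05 and 0.00139). Of 8 glycolysis genes around Bpgm, 2 were called higher, Hk1 (0.45 ± 0.13) and Pklr, the liver and red cell pyruvate kinase (0.80 ± 0.24; edgeR adjusted p = 0.0214 and 0.0265), each call lost under 5 of 31 alternatives. Of 9 genes of erythropoietic and iron signalling tested, the average of orchiectomy called 2 higher. Hamp2, a paralogue of the iron hormone hepcidin, lay between 21.2 and 90.8 CPM in ORX_IH and between 105.5 and 276 CPM in ORX_Nx livers, against 2.66 to 5.93 CPM in Sham_IH and 3.54 to 10.3 CPM in Sham_Nx livers, and averaged 4.52 ± 0.31 (edgeR adjusted p = 2.40e-08). The hepcidin genes are similar in sequence, so the split of reads between them is uncertain. Fgl1, a protein secreted by hepatocytes, averaged 0.94 ± 0.18 (adjusted p = 0.00161). Of 10 genes that clear haem and haemoglobin, the same average called 1, Blvrb, biliverdin reductase B, lower at -0.31 ± 0.08 (edgeR adjusted p = 0.00707). In normoxia 3 of the 10 were called, against 14.3% of all genes: Blvrb lower (-0.41 ± 0.11, edgeR adjusted p = 0.0203), and Spic, a transcription factor of red pulp and other iron-recycling macrophages, and Hpx (hemopexin), the haem carrier of plasma, higher (1.68 ± 0.55 and 0.85 ± 0.28, adjusted p = 0.0465 and 0.0478). The calls of Spic and Hpx were each lost under 22 of 32 alternatives, and that of Blvrb in normoxia under 5 of 32. The average call of Blvrb was lost under 1 of 31, without the 4 libraries highest in muscle genes (edgeR adjusted p = 0.0832).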

How the data were processed

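Libraries from poly(A)-selected liver RNA were grouped by the sample titles. Per the submitters' processing notes, bcl2fastq 2.20, fastp 0.23.2, FastQC 0.11.9, MultiQC 1.12 and kallisto 0.46.1 were used with build GRCm39. The authors deposited estimated counts per gene, and these expected counts, 27.5% of them with decimals, were rounded here. The authors also deposited normalized log2 values beside a score (the F-statistic of a test over all groups), a p-value and a q-value. The authors labelled those log2 values TMM, and no source used here says more about how they were normalized. Genes were filtered with filterByExpr (minimum count 10; 16164 left), scaled by TMM and fitted in edgeR 4.0.16 (R 4.3.3) over all 4 groups, with no block. Quasi-likelihood p-values received Benjamini-Hochberg (BH) adjustment over the 16164 genes and were called at 0.05. Levels are CPM, and exact permutation tests used log2 CPM with a prior count of 1. RPKM uses the table's mean gene lengths. DESeq2 1.42.0 and limma 3.58.1 served as alternatives. The fit was tested on simulated data. Replicates differed by 19.3 to 184 in chi-square per degree of freedom, so none was counted as a technical copy. Intervals of counts and the floor of 3 counts cover counting error only.

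The 8 genes and the gene lists were chosen with earlier results of these data known. The genes named from lists were those with the smallest adjusted p among the called, up to 4 per list and comparison; Alas1, Alad, Gata1, Cldn13, Klf1 and Tal1 were named after their values were seen. A pair of listed genes is not reported here. Sequences are from RefSeq, GRCm38.p6, and no coordinates of the authors' build are given.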

Additional observations from a re-analysis of the deposited data

Results flagged for a closer look

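Of 32 sets of values (8 genes in 4 groups), 2 held a library far from the others of its group, where chance gives about 1 in 20. Hba-a1 stood at 115.9 CPM in Sham_Nx mouse 3, above the other 3 mice of that group. The same mouse was also the highest of its group for Hba-a2 (218 CPM), Hbb-bs (201 CPM) and Hbb-bt (29.5 CPM). Epb42 stood at 0.1375 CPM in Sham_IH mouse 3, below the other 4, at about 5 counts.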

How the results depend on the processing

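Alas2 kept its direction in every comparison under the 32 alternatives, and its calls for orchiectomy in normoxia, under intermittent hypoxia and on average, and for both treatments, held in each of them. Bpgm stayed called for orchiectomy in normoxia, between -0.49 and -0.42. The number of the 8 genes called was 2 with DESeq2 for ORX_IH against ORX_Nx (Alas2 and Bpgm) and 1 with DESeq2 for the interaction (Bpgm), where edgeR gave 0 for both. Without the 4 libraries highest in muscle genes it was 1 for orchiectomy on average and 0 for intermittent hypoxia on average, and it was also 0 for intermittent hypoxia on average in libraries numbered 1 to 16. Leaving out each mouse in turn gave 0 to 1 calls for ORX_IH against ORX_Nx, with Alas2 called only without ORX_Nx mouse 3 (adjusted p = 0.0419). Bpgm in ORX_IH against Sham_IH, near 0, changed sign to -0.0022 without the 2 libraries highest in acute phase genes and lay between -0.030 and 0.049 with single mice left out. Hbb-bs for orchiectomy on average was 0.038 in libraries 1 to 16 and between -0.23 and 0.015 with single mice left out, and the fitted value of Mb for ORX_IH against Sham_IH, at most 3 counts per library, was -2.32 once the 4 muscle-rich libraries were removed; the cause was not tested.

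Of 1484 values of the other 6 genes, 130 changed sign and 0 were called. Without ORX_IH mouse 1 the median of the 4 globins was -0.02 for ORX_IH against ORX_Nx, -0.40 for ORX_IH against Sham_IH and -0.32 for ORX_IH against Sham_Nx. Genes named from the other lists kept their call in 1233 of 1516 values. Counts over all genes moved far more: without the 4 libraries highest in muscle genes they were 422 for orchiectomy in normoxia (2319 with all libraries), 107 under intermittent hypoxia (465), 1306 on average (3549) and 8 for intermittent hypoxia on average (733), and DESeq2 called 413 genes for Sham_IH against Sham_Nx and 712 for ORX_IH against ORX_Nx, where edgeR called 49 and 12. Single mice left out gave 1 to 197 and 0 to 232 in these comparisons. The alternatives that leave out libraries by muscle, pancreatic, acute phase or globin genes were chosen after the data were seen.

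Mice with the same number deviated from their group means with correlations of -0.197 to 0.395, not above 0.1 in every pair, so they were not taken to pair the mice; mice 5 are libraries 17 to 20. With the replicate number as a block, Alas2 was -1.71 ± 0.12 for orchiectomy and -0.64 ± 0.12 for intermittent hypoxia on average, and no call among the 8 changed. Depth limits Slc4a1 and Epb42, with at most 24 counts per library.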
